A study of Mus musculus with 12 samples.

Results

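Mouse adherent neural stem (ANS) cells were followed through differentiation into GABAergic neurons, and 9 of the 22609 genes in the count tables are described here: the receptor chains Lifr, Il6st and Cntfr, the kinases Jak1 and Jak2, the transcription factor Stat3, the feedback inhibitors Socs2 and Socs3, and the chemokine Ccl2. The genes were taken by their symbols, and all 9 were found in the counts of all 12 libraries and in the FPKM values. The first 8 were chosen as parts of the JAK-STAT pathway, and Ccl2 was chosen by its fall from T0, so that its levels are given as a description with no test. The cells came from E14.5 brain; the labels give neither strain nor genotype, and the column names carry wt with no further word. T0 cells (3 libraries) proliferated in growth medium with 1% N2, 20 ng/ml FGF2 and 20 ng/ml EGF. T1 cells (3 libraries) were taken 2 days after the change to medium D1, with 0.5% N2, 1% B27, 10 ng/ml FGF2 and 2 ng/ml EGF. T2 cells (4 libraries) were taken 2 days after the change to medium B on laminin, with 0.5% N2, 1% B27, 10 ng/ml FGF2, 20 ng/ml BDNF and no EGF, and T3 cells (2 libraries) 10 days after that change by the labels, or 10 days after the T2 procedure by the study's text. Every group thus received FGF2 and N2, and the design calls the libraries of a group biological replicates.

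Cytokines related to leukemia inhibitory factor (LIF) and ciliary neurotrophic factor (CNTF) bind Lifr paired with Il6st, the shared signalling chain also known as gp130, and CNTF needs Cntfr as well. The receptor-bound kinases Jak1 and Jak2 then phosphorylate Stat3, which enters the nucleus, activates its targets, and induces Socs3, an inhibitor that binds Il6st and the kinases. In neural progenitors this route drives astrocyte genes such as Gfap and is known for turning progenitors from neurons to glia. Ccl2 encodes a secreted chemokine that attracts monocytes.

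Counts on genes summed to 8910724 to 16631614 per library. T0 replicate 3 stood apart. Of 11530 expressed genes, 21 differed by more than 2-fold between T0 replicates 1 and 2, and 1692 and 1655 did between each of them and T0 replicate 3. Gfap was at 146 and 148 CPM (counts scaled to the total of each library) in T0 replicates 1 and 2 and at 0.494 CPM in T0 replicate 3. The summed level of 6 progenitor markers was 3151, 3228 and 5696 CPM, but its genes did not move together. Fabp7 (748, 804 and 2259 CPM), Nes and Olig2 were higher in T0 replicate 3 than in the other T0 libraries. Sox2 (428, 427 and 186 CPM), Pax6 and Hes1 were lower there. The labelled neural stem cells expressed their defining markers, with Nes at 846 to 1815 CPM and Sox2 at 186 to 428 CPM over the T0 libraries. The members called against T0 are therefore given with and without T0 replicate 3, and so are the counts of other called genes. Fold changes without that library are given for some comparisons only. In bulk samples, fewer cells of a type and less RNA per cell cannot be told apart.

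The sequences upstream of 3 members are shown because Lifr fell, its partner chain Il6st rose, and Socs3 is the classical feedback target of Stat3. Each run holds the 250 bases before a RefSeq transcript start on GRCm38.p6, 5′ to 3′ on the gene's strand. Capitals mark TTCNNNGAA, the palindromic core that STAT proteins bind. The Lifr run lies at chr15:7129322-7129571 on the plus strand and belongs to the first of 2 listed starts, the Il6st run at chr13:112463820-112464069 on the plus strand, and the Socs3 run at chr11:117969367-117969616 on the minus strand.
Lifr: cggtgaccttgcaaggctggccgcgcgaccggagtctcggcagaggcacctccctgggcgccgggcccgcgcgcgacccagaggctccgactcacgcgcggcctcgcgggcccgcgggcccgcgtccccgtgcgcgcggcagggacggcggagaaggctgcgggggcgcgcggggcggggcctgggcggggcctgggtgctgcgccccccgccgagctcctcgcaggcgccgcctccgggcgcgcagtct
Il6st: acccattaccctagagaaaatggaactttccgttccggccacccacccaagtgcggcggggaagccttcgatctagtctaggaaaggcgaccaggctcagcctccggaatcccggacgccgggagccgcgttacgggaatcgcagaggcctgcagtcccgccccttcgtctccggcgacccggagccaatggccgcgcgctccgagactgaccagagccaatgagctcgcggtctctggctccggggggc
Socs3: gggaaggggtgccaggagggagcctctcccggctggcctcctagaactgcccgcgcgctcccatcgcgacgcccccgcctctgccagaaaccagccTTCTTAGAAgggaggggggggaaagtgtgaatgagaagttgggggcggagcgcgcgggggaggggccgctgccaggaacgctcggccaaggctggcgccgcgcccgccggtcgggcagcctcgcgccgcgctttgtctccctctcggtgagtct

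Windows of 250 bases before to 50 after a start were listed for 7 of the 9 members (13 windows), and none was listed for Socs2 and Ccl2. TTCNNNGAA occurred in 1 of the 13, the Socs3 window, where its first base lies 154 bases before the start. The same letters occur in 8.30% of all 32851 RefSeq windows of that length, and the stricter TTCCNGGAA, searched on both strands as a palindrome, in 1.15% of all windows and in none of the members' windows. A match is a description of letters and shows no binding. The Lifr run holds 82.4% G and C, the Socs3 run 71.6% and the Il6st run 66.0%.

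At T1 and T2 Lifr was lower than at T0, and its partner chains Il6st and Cntfr and the kinase Jak1 were higher. Socs3 was higher at T2, and Stat3 passed the test in no comparison. A gene was called at an adjusted p under 0.05 in the quasi-likelihood test of edgeR, fitted over all genes. At T1, 1 of the 8 signalling members was called lower than at T0 (16.8% of all 12364 genes tested) and 3 were called higher (15.1%). At T2, 1 was lower (21.8% of 12607) and 4 were higher (21.4%). At T3, with 2 libraries, 0 were lower (1.41% of 12721) and 0 higher (3.31%); Socs3 alone had an unadjusted p under 0.05, and DESeq2 called it. The 8 members had a median log2 fold change of 0.48 (T1), 0.41 (T2) and 0.18 (T3), beside medians of all genes of -0.0082, 0.0023 and -0.015. All 3 comparisons share the T0 libraries.

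Without T0 replicate 3, the shares of all genes called rose to 24.9% lower and 25.2% higher at T1, 25.3% and 26.7% at T2, and 8.49% and 9.94% at T3. The same 4 members were called at T1. At T2, Lifr was lower and Il6st, Jak1, Socs2 and Socs3 were higher, and at T3, Jak2 was lower and Socs3 higher. Between T2 and T1, 0 members were called lower (0.0565% of 12382 genes) and 0 higher (0.573%); Socs3 alone had an unadjusted p under 0.05, and DESeq2 called it. From T2 to T3, 1 member, Jak2, was called lower (0.691% of 12599) and 0 higher (0.5%), while DESeq2 called 3.

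**Figure D1:**
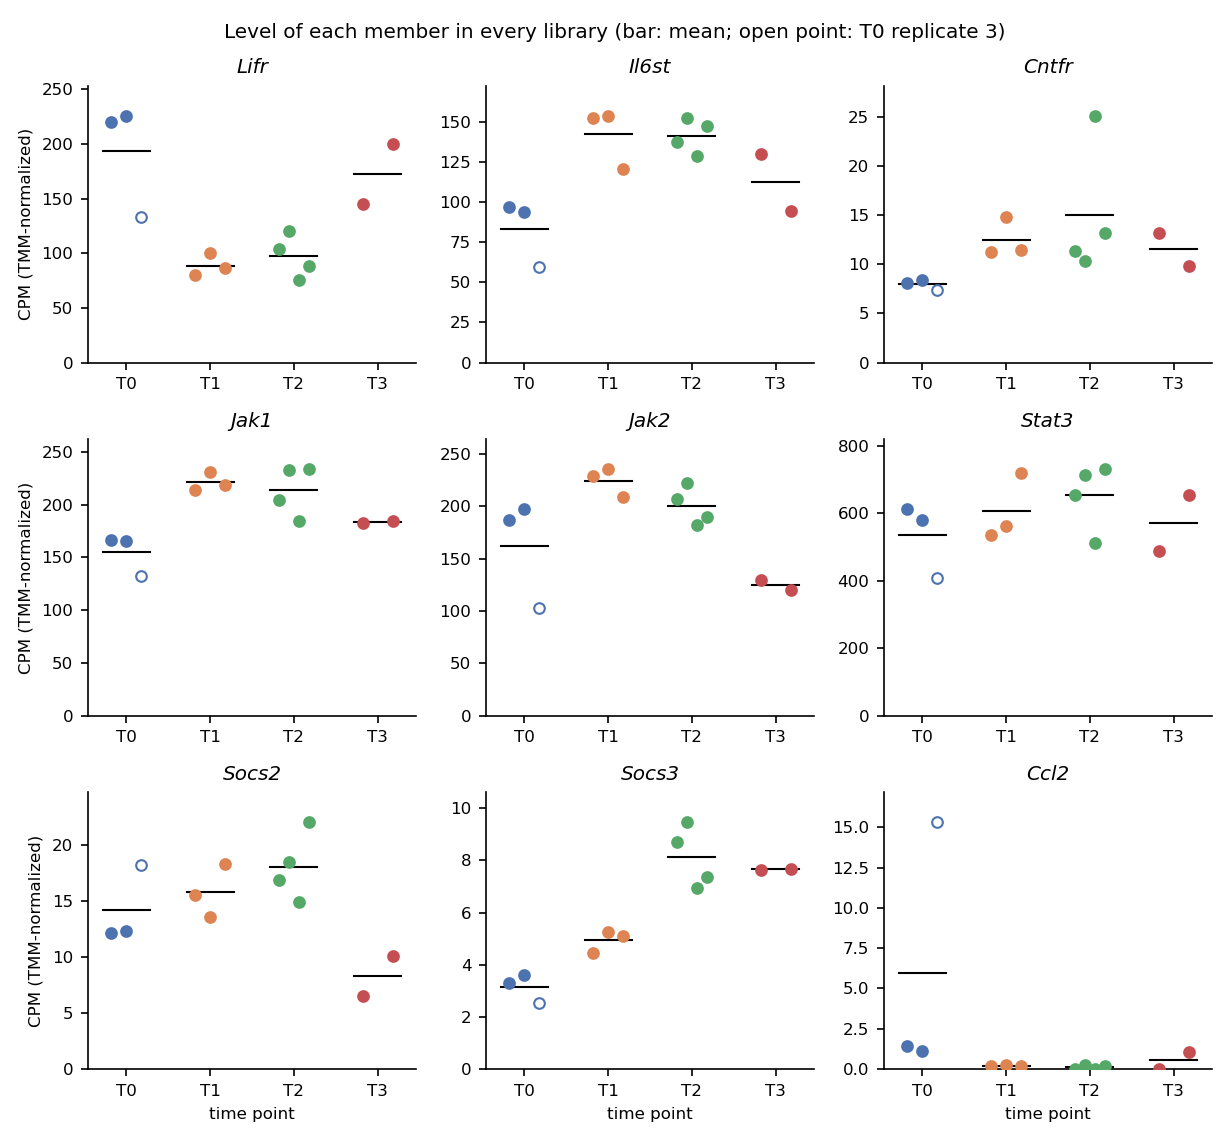
Level of each of the 9 genes in every library (y axis, CPM, own linear scale per gene) at T0, T1, T2 and T3 (x axis); points are libraries, the open point is T0 replicate 3 and bars are group means. Lifr is lowest at T1 and T2, Il6st, Cntfr and Jak1 are lowest at T0, and Ccl2 reaches 15.3 CPM only in T0 replicate 3.

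Lifr, the LIF receptor chain, was at 220.0, 226 and 133 CPM at T0, at 79.7, 100.1 and 86.3 CPM at T1, at 104, 120.3, 75.9 and 88.2 CPM at T2, and at 145 and 199.6 CPM at T3. All T1 and T2 libraries lay below every T0 and every T3 library, and T1 overlapped T2, as T3 overlapped T0. It fell by 1.13 on the log2 scale at T1 (SE 0.217, edgeR adjusted p = 0.00948), fell by 0.99 at T2 (SE 0.217, adjusted p = 0.0074), and was at -0.15 at T3 (SE 0.290, adjusted p = 0.766). Without T0 replicate 3, whose level was 0.599 times the mean of the other two, the values were -1.34 at T1 (adjusted p = 1.11e-05) and -1.20 at T2 (adjusted p = 0.000127). From T2 to T3 the log2 fold change was 0.83 (SE 0.192, adjusted p = 0.0726). The T1 call was lost without T1 replicate 1 (log2 fold change -1.06, adjusted p = 0.0524), and the T2 call was made in all 14 alternative analyses. The gene lies on chromosome 15 from 7079559 to 7147489 on the plus strand (NCBIM37).

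Il6st moved the other way. It was at 97.0, 93.6 and 59.4 CPM at T0, at 152, 154 and 120.4 CPM at T1, at 137, 152, 129 and 147 CPM at T2, and at 130.1 and 94.6 CPM at T3. Every T1 and T2 library exceeded every T0 library, and the T3 libraries spanned both ranges. It rose by 0.76 on the log2 scale at T1 (SE 0.209, edgeR adjusted p = 0.0328) and by 0.76 at T2 (SE 0.175, adjusted p = 0.00888), or by 0.56 and 0.57 without T0 replicate 3 (adjusted p = 0.00337 and 0.000602). At T3 the value was 0.44 (SE 0.274, adjusted p = 0.356). Leaving out any T1 library ended the T1 call (adjusted p from 0.0563 to 0.117); the T2 call was made in all 14 alternatives. Il6st lies on chromosome 13 from 113265216 to 113297068 on the plus strand (NCBIM37).

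Cntfr, the chain that makes the complex responsive to CNTF, was the lowest of the 3 receptor chains among the members. It was at 8.14, 8.44 and 7.41 CPM at T0, at 11.2, 14.8 and 11.5 CPM at T1, at 11.4, 10.3, 25.1 and 13.2 CPM at T2, and at 13.2 and 9.81 CPM at T3. Every later library lay above all T0 libraries, and T2 replicate 3 was the highest. On the log2 scale Cntfr rose by 0.63 at T1 (edgeR adjusted p = 0.0376, SE 0.183) and by 0.91 at T2 (adjusted p = 0.0456, SE 0.316), and the T3 value was 0.54 (SE 0.258, adjusted p = 0.247). Of the alternatives, 6 of 13 made the T1 call and 6 of 14 the T2 call, and without T2 replicate 3 or T0 replicate 3 the T2 value was 0.55 (adjusted p = 0.0523) or 0.85 (adjusted p = 0.0558). Cntfr lies on chromosome 4 from 41604529 to 41644121 on the minus strand (NCBIM37).

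Levels per length, in the deposited FPKM values, show how the receptor chains stood to each other, as a description with no test. Lifr averaged 17.2 FPKM at T0 and 12.4 FPKM at T3, and 6.97 and 7.21 FPKM at the times in between. Il6st averaged 11.3, 19.1, 17.7 and 13.4 FPKM from T0 to T3, and Cntfr 3.36, 5.22, 5.71 and 4.15 FPKM. The ratio of Lifr to Il6st was thus 1.53 ± 0.0657 (SD, n = 3) at T0, 0.369 ± 0.0481 (n = 3) at T1, 0.404 ± 0.0705 (n = 4) at T2, and 0.718 and 1.24 in the T3 libraries. Every T0 library, T0 replicate 3 included, had more Lifr than Il6st (ratios from 1.47 to 1.60), and every T1 and T2 library had less (0.317 to 0.484). The ratio of Cntfr to Lifr ran from 0.167 to 0.261 at T0, from 0.705 to 0.774 at T1, from 0.454 to 1.75 at T2, and was 0.246 and 0.435 at T3.

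**Figure D2:**
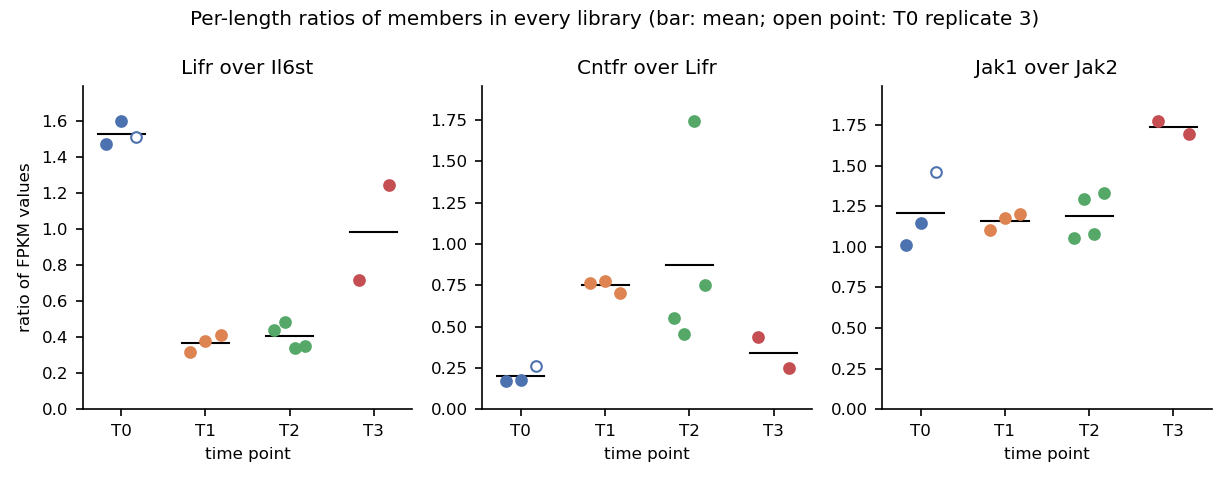
Ratios of FPKM values within each library (y axis) at T0, T1, T2 and T3 (x axis) for Lifr over Il6st, Cntfr over Lifr and Jak1 over Jak2; points are libraries, the open point is T0 replicate 3 and bars are group means. Lifr over Il6st is 1.47 to 1.60 at T0 and 0.317 to 0.484 at T1 and T2, with no overlap.

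Jak1, the kinase that signalling through Il6st chiefly uses, was at 167, 165 and 133 CPM at T0, at 214, 231 and 219 CPM at T1, at 205, 233, 184 and 234 CPM at T2, and at 182 and 184 CPM at T3. All later libraries were above all T0 libraries. On the log2 scale Jak1 rose by 0.50 at T1 (edgeR adjusted p = 0.0238, SE 0.126) and by 0.47 at T2 (adjusted p = 0.0215, SE 0.133), and without T0 replicate 3 it was 0.40 (adjusted p = 0.00234) and 0.37 (adjusted p = 0.0171). The T3 value was 0.26 (SE 0.169, adjusted p = 0.384). The T1 call was lost without each T1 library in turn (adjusted p from 0.066 to 0.091), and, of single libraries left out, T2 replicate 1, 2 or 4 ended the T2 call (0.0513, 0.0525 and 0.066). Jak1 lies on chromosome 4 from 100824972 to 100937887 on the minus strand (NCBIM37).

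Jak2, the kinase shared by many cytokine and hormone receptors, took another course. It was at 187, 197 and 103 CPM at T0, at 229, 236 and 209 CPM at T1, at 207, 223, 182 and 189 CPM at T2, and at 130.1 and 119.9 CPM at T3. Both T3 libraries lay below every T1 and T2 library and, at T0, above replicate 3 only. Jak2 fell by 0.67 from T2 to T3 (SE 0.118, edgeR adjusted p = 0.0458), a call made in 5 of 12 alternatives and lost without T3 replicate 4 and without any T2 library (0.0777 to 0.149). Against T0 the log2 fold change was 0.46 at T1 (adjusted p = 0.185), 0.31 at T2 (0.272) and -0.36 at T3 (0.494), and without T0 replicate 3 it fell by 0.61 at T3 (adjusted p = 0.0278). The FPKM ratio of Jak1 to Jak2 ran from 1.01 to 1.46 over the T0, T1 and T2 libraries and was 1.70 and 1.78 at T3. Jak2 lies on chromosome 19 from 29326318 to 29387570 on the plus strand (NCBIM37).

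Stat3, on chromosome 11 from 100746412 to 100800854 on the minus strand (NCBIM37), was the most abundant member per length at T0, at 159 FPKM beside 27.3 for Jak1 and 23.4 for Jak2. It was at 613, 582 and 409.5 CPM at T0, at 536, 563 and 720.1 CPM at T1, at 654, 714, 512 and 732 CPM at T2, and at 489 and 655 CPM at T3. Every pair of time points overlapped. The log2 fold changes from T0 were 0.17 at T1 (SE 0.199, edgeR adjusted p = 0.532), 0.29 at T2 (SE 0.182, adjusted p = 0.221) and 0.11 at T3 (SE 0.249, adjusted p = 0.81). Without T0 replicate 3 they were 0.011, 0.13 and -0.054. No alternative analysis called Stat3 in any of the 5 comparisons, and these are RNA levels, which say nothing of its phosphorylation.

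Socs3 rose at T2. The counts behind it are low, at 44, 52 and 36 at T0, 52, 70 and 84 at T1, 90, 102, 76 and 120 at T2, and 92 and 71 at T3. Scaled, they were 3.29, 3.60 and 2.54 CPM at T0, 4.46, 5.27 and 5.11 CPM at T1, 8.69, 9.47, 6.94 and 7.36 CPM at T2, and 7.65 and 7.66 CPM at T3. All T0 libraries lay below all T1 libraries, and those below all T2 and T3 libraries. Socs3 rose by 1.37 at T2 (SE 0.219, edgeR adjusted p = 0.00165), a call made in all 14 alternatives, and by 1.23 without T0 replicate 3 (adjusted p = 0.000701). At T1 the value was 0.64 (SE 0.233, adjusted p = 0.0729). At T3 it was 1.30 (SE 0.307, adjusted p = 0.0692), or 1.16 without T0 replicate 3 (adjusted p = 0.0341). The step from T1 to T2 was 0.71 (SE 0.165, adjusted p = 0.1). The deposited FPKM values of Socs3 did not follow its counts: T2 replicate 1 was listed at 8.12 FPKM and the other T2 libraries at 1.88 to 2.60. Socs3 lies on chromosome 11 from 117827393 to 117831361 on the minus strand (NCBIM37).

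Socs2, an inhibitor best known for damping growth hormone signalling, was at 12.2, 12.3 and 18.3 CPM at T0, at 15.5, 13.6 and 18.3 CPM at T1, at 16.9, 18.5, 14.9 and 22.1 CPM at T2, and at 6.57 and 10.1 CPM at T3. Both T3 libraries lay below all others. From T2 to T3 the log2 fold change was -1.12 (SE 0.240, edgeR adjusted p = 0.0619), and from T0 to T3 -0.76 (SE 0.326, adjusted p = 0.208). Unlike most members it was higher in T0 replicate 3 than in the other T0 libraries, and without that library it was called at T2, with a rise of 0.57 (adjusted p = 0.0157). Socs2 lies on chromosome 10 from 94847996 to 94879814 on the minus strand (NCBIM37).

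**Figure D3:**
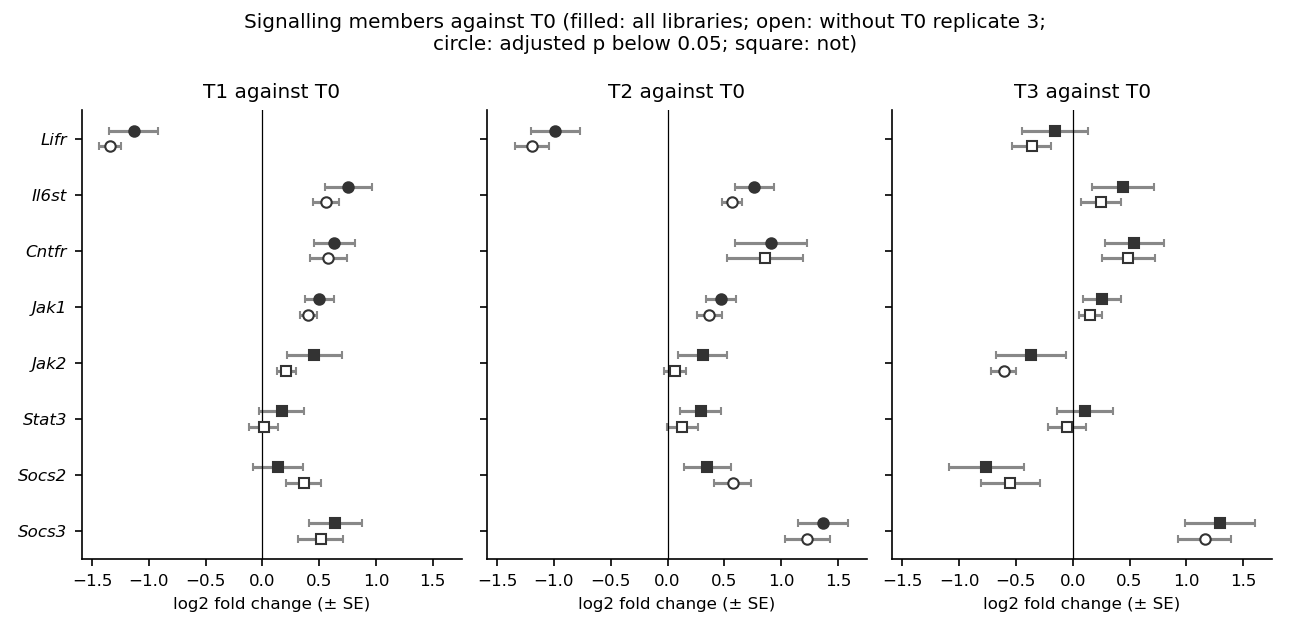
Log2 fold change from T0 of the 8 signalling members (x axis, with 1 SE) at T1, T2 and T3, with all libraries (filled) and without T0 replicate 3 (open); circles are called at an adjusted p under 0.05 and squares are not. Lifr is the only member called below 0 at T1 and T2, and Socs3 has the largest rise at T2, 1.37.

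Ccl2, on chromosome 11 from 81849073 to 81850955 on the plus strand (NCBIM37), was counted 19, 16 and 217 times at T0, 2, 3 and 3 times at T1, 0, 3, 0 and 3 times at T2, and 0 and 10 times at T3. As CPM these were 1.42, 1.11 and 15.3 at T0, 0.172, 0.226 and 0.182 at T1, 0, 0.279, 0 and 0.184 at T2, and 0 and 1.08 at T3. No later library reached the lowest T0 library. Against a floor of 3 counts per library, the T1 level of Ccl2 was at least 26.8-fold lower than at T0, and the T2 level at least 23.2-fold lower. Most of that size came from T0 replicate 3: without it the bounds were 5.69-fold and 4.92-fold. The 10 counts of T3 replicate 4 have an exact 95% Poisson interval of 4.80 to 18.4 counts, covering counting error only, and the 0 of T3 replicate 1 allows up to 3 counts. T0 replicate 3 held 12.1 times the mean Ccl2 level of the other T0 libraries. The signalling members ran there from 0.534 (Jak2) to 1.49 (Socs2) times their own means in those libraries. The share of all genes lower in that library is not given, so these values are a description only.

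The chemokine genes that lie near Ccl2 on its chromosome were all but silent. Ccl7, 8259 bases away, had 6 counts over all 12 libraries, Ccl11, Ccl12 and Ccl8 had 0 in all, and Ccl1 had 1. Ccr2, which encodes the Ccl2 receptor, had 0 counts in all libraries.

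The wider JAK-STAT pathway, a list of 47 other genes, held 33 tested genes at T1 and T2. Of these, 6 were called higher and 1 lower at T1 (median log2 fold change 0.058), beside 15.1% and 16.8% of all genes, and 7 higher and 1 lower at T2 (median 0.10), beside 21.4% and 21.8%. At T3, 0 of 34 were called by edgeR, with 7 at an unadjusted p under 0.05 and 3 called by DESeq2. Without T0 replicate 3, 7, 9 and 3 were higher at T1, T2 and T3, beside 25.2%, 26.7% and 9.94% of all genes. In that setting 3, 3 and 1 were lower, beside 24.9%, 25.3% and 8.49%. Neither between T2 and T1 nor from T2 to T3 was any called by edgeR or DESeq2 (2 and 4 at an unadjusted p under 0.05).

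**Figure D4:**
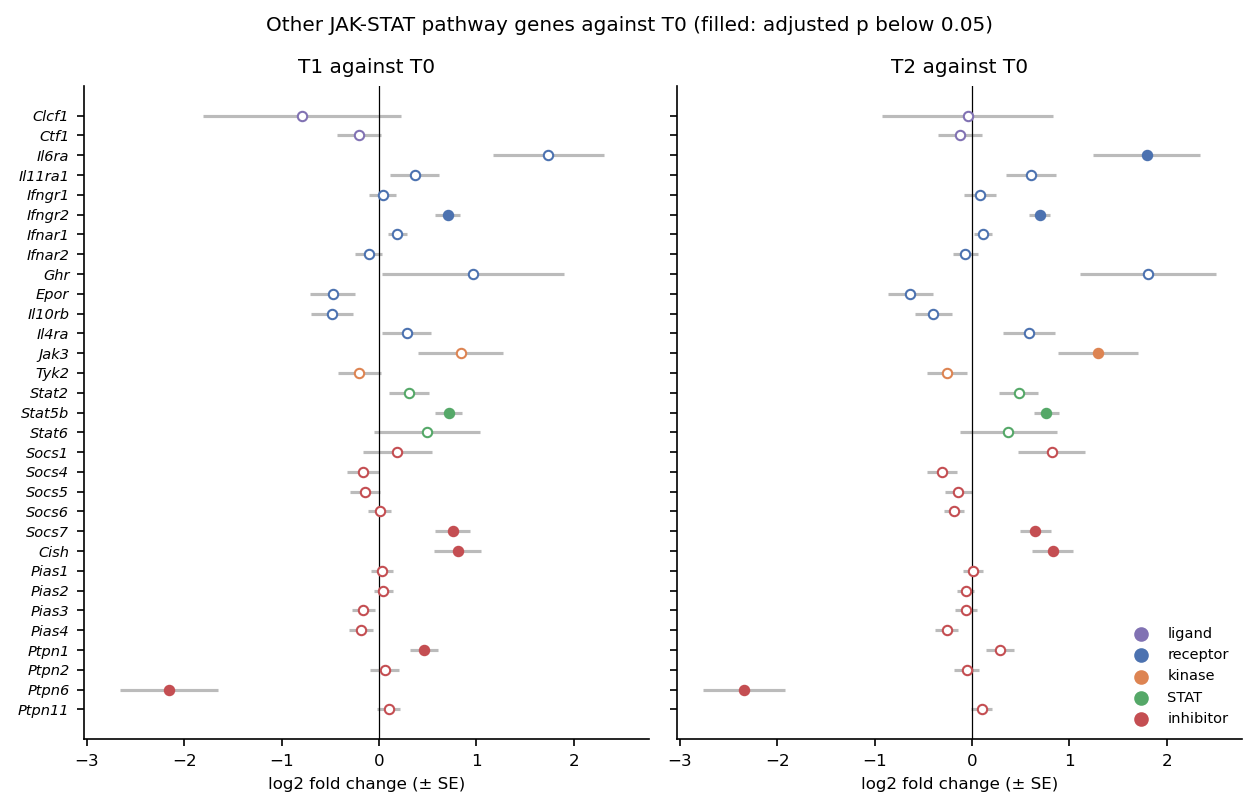
Log2 fold change from T0 (x axis, with 1 SE) of tested genes of the JAK-STAT list, named on the y axis and grouped by role, at T1 and T2; filled points are called at an adjusted p under 0.05. Ptpn6 is the only filled point below 0, and Il6ra, at 1.80, has the largest rise among the filled points at T2.

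Several ligands of the family had low counts. Clcf1, a ligand of the Cntfr complex, was at 2.02, 1.31 and 0 CPM at T0, 0.515, 1.13 and 0.304 at T1, 0.290, 0.928, 1.92 and 1.10 at T2, and 0.166 and 0.216 at T3, so that its T0 libraries spanned the later ones; without T0 replicate 3 it was called lower at T1 (edgeR adjusted p = 0.0418). Ctf1, cardiotrophin, was at 5.79 to 8.92 CPM at T0 and 4.66 to 8.41 CPM later. Fewer reads came from Lif, with 3 to 11 counts per library, Cntf with 0 to 9, Il11 with 1 to 6, Ctf2 with 0 to 6, Osm with at most 1, and Il6 with 3 counts in all.

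Of 16 receptors 10 were tested. Il6ra, the private chain for IL6 that also uses Il6st, had 14, 9 and 2 counts at T0, 18, 26 and 42 at T1, 14, 21, 20 and 51 at T2, and 20 and 15 at T3, and rose by 1.80 at T2 (edgeR adjusted p = 0.0288), or by 1.35 without T0 replicate 3 (adjusted p = 0.0227). Ifngr2, a chain of the interferon gamma receptor, rose by 0.71 at T1 (adjusted p = 0.00749) and 0.69 at T2 (adjusted p = 0.00163), from 33.5, 38.7 and 35.3 CPM at T0 to at least 54.2 CPM in every T1 and T2 library, and by 0.70 and 0.68 without T0 replicate 3 (adjusted p = 0.000991 and 0.000435). Osmr, the oncostatin M chain, had at most 2 counts in any library.

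Jak3, the kinase of lymphocyte cytokine receptors, was at 12.6, 12.4 and 3.81 CPM at T0, against 21.9, 32.9, 15.3 and 23.5 CPM at T2, a rise of 1.29 (edgeR adjusted p = 0.0344), or of 0.91 without T0 replicate 3 (adjusted p = 0.0128). The other kinase, Tyk2, was called in no comparison with all libraries, and without T0 replicate 3 fell by 0.41 at T1 (adjusted p = 0.0105) and fell by 0.47 at T2 (adjusted p = 0.0108). Among other STAT genes, Stat5b was called higher. It was at 46.8, 42.2 and 57.2 CPM at T0 and at 75.4 to 96.3 CPM in all later libraries, up by 0.72 at T1 (adjusted p = 0.0097) and by 0.76 at T2 (adjusted p = 0.00216), and without T0 replicate 3 up by 0.85, 0.89 and, at T3, 0.96 (adjusted p = 9.15e-05, 4.99e-05 and 0.024). Stat2 ran from 19.8 to 43.4 CPM over all libraries. Stat6 was at 3.88, 3.73 and 0.706 CPM at T0 and 1.83 to 4.97 CPM later, Stat4 had at most 8 counts, and Stat5a had 0 to 4 counts before T3 and 11 and 7 at T3 (adjusted p = 0.0783 against T0).

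The 14 inhibitors were all tested. Cish, a SOCS family member induced by Stat5, rose by 0.81 at T1 (edgeR adjusted p = 0.0406) and 0.83 at T2 (adjusted p = 0.0133), from 2.26 to 2.63 CPM at T0 to 3.59 to 5.06 CPM at T1 and T2. Socs7 rose by 0.76 (adjusted p = 0.0205) and 0.65 (adjusted p = 0.0102), and the phosphatase gene Ptpn1 by 0.46 at T1 (adjusted p = 0.0485). All 3 were called at T1 and at T2 without T0 replicate 3, Cish at 0.74 and 0.76, Socs7 at 0.59 and 0.48, and Ptpn1 at 0.62 and 0.45. Ptpn6, which encodes the phosphatase SHP-1, was at 7.32, 8.72 and 22.9 CPM at T0, at 3.60, 1.96 and 3.22 CPM at T1, at 2.41, 1.76, 3.11 and 2.82 CPM at T2, and at 3.24 and 7.12 CPM at T3. Like Ccl2, it was highest in T0 replicate 3. It fell by 2.15 at T1 (adjusted p = 0.0187) and fell by 2.34 at T2 (adjusted p = 0.00288), and without that library its values were -1.46 and -1.65 (adjusted p = 0.00142 and 0.000227).

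Genes that Stat3 is known to induce were called in both directions. Of 14 on a list, 10 were tested. With all libraries, 2 were called higher and 3 lower at T1 (median log2 fold change -0.20, beside 15.1% and 16.8% of all genes). The same numbers were called at T2 (median 0.046, beside 21.4% and 21.8%). Without T0 replicate 3, 3 were higher at T1 and at T2, beside 25.2% and 26.7% of all genes, and 5 lower, beside 24.9% and 25.3%. At T3 edgeR called Serpina3n higher with all libraries, beside 3.31% of all genes, while DESeq2 called 4. Without T0 replicate 3 edgeR called 2 higher and 1 lower at T3, beside 9.94% and 8.49% of all genes. Serpina3n, an acute-phase gene of reactive astrocytes, was at 0.896, 0.484 and 0.494 CPM at T0, at 1.29, 2.64 and 3.28 CPM at T1, at 8.69, 6.50, 6.49 and 9.08 CPM at T2, and at 15.0 and 22.4 CPM at T3, with no overlap between time points. It was up by 1.94 at T1 (edgeR adjusted p = 0.0203), 3.62 at T2 (adjusted p = 0.000108) and 4.90 at T3 (adjusted p = 0.0136), and rose by 1.65 from T1 to T2 (adjusted p = 0.0375, or 0.0598 with replicate number as a block) and by 1.28 from T2 to T3 (adjusted p = 0.0486). Cebpd, a transcription factor of the same response, was at 2.76, 4.29 and 2.68 CPM at T0 and at 8.07 to 11.3 CPM in all later libraries, up by 1.43 at T1 (adjusted p = 0.00722) and 1.61 at T2 (adjusted p = 0.00104). Serpina3n, without T0 replicate 3, was up by 1.82, 3.48 and 4.76 at T1, T2 and T3 (edgeR adjusted p = 0.0123, 1.89e-05 and 0.00767) and Cebpd by 1.30, 1.48 and 1.25 (0.00125, 0.000396 and 0.0467).

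The 3 called lower at T1 and T2 with all libraries were Myc, Junb and Cebpb. Such genes also respond to growth factors, and the cause of their fall was not tested. Myc was at 241, 230.5 and 453 CPM at T0, at 102, 119.8 and 109 CPM at T1, at 134, 148, 123.5 and 127 CPM at T2, and at 190.4 and 269 CPM at T3. It fell by 1.49 at T1 (edgeR adjusted p = 0.00782), fell by 1.20 at T2 (adjusted p = 0.0038), and rose by 0.79 from T2 to T3 (adjusted p = 0.0492). Junb was at 18.6 to 28.4 CPM at T0 and 5.41 to 12.6 CPM later, with log2 fold changes of -1.76 and -1.63 at T1 and T2 (adjusted p = 0.00534 and 0.000713). Cebpb, at 8.96 to 16.2 CPM at T0 and 3.52 to 6.15 CPM later, had values of -1.52 and -1.18 (adjusted p = 0.011 and 0.00436). The T1 and T2 values without T0 replicate 3 were -1.11 and -0.82 for Myc, -1.62 and -1.50 for Junb, and -1.23 and -0.91 for Cebpb, all called.

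**Figure D5:**
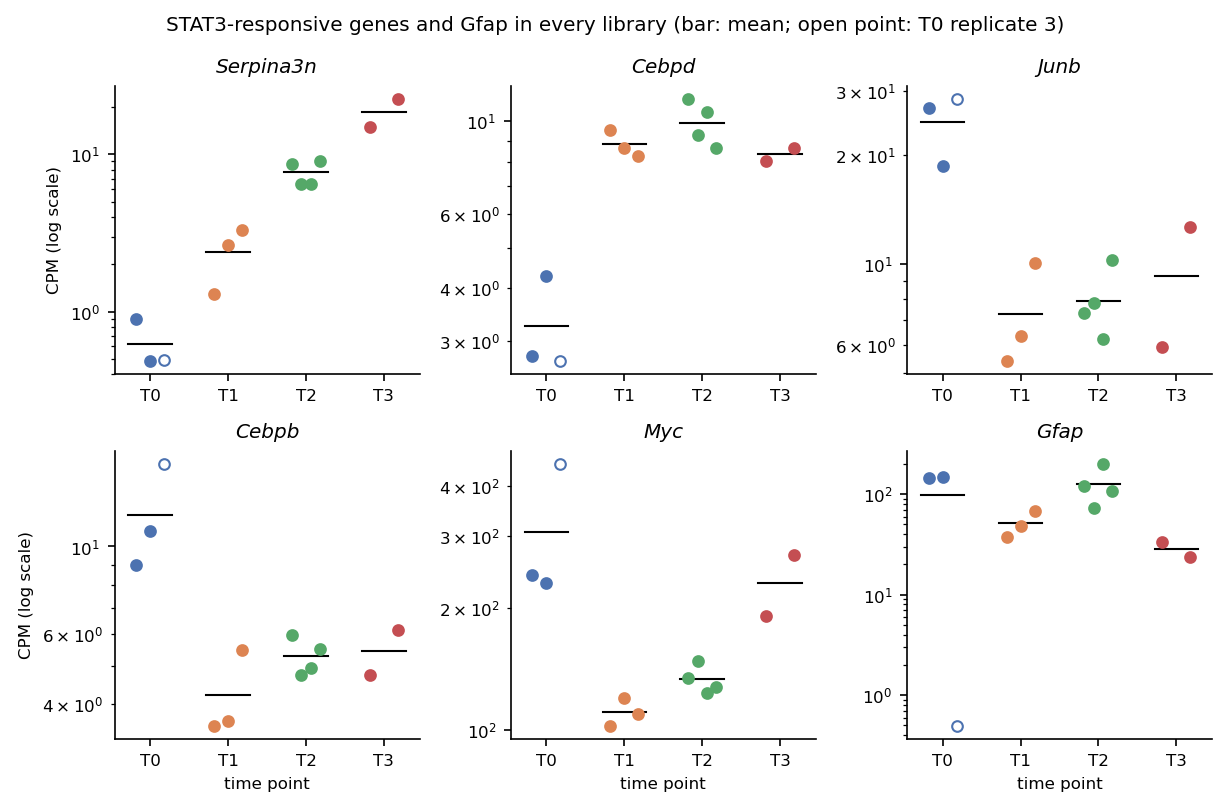
Level (y axis, CPM on a log scale, own range per gene) of Serpina3n, Cebpd, Junb, Cebpb, Myc and Gfap in every library at T0, T1, T2 and T3 (x axis); points are libraries, the open point is T0 replicate 3 and bars are group means. Serpina3n climbs to 15.0 and 22.4 CPM at T3, and Gfap is at 0.494 CPM in T0 replicate 3 beside 146 and 148 CPM in the other T0 libraries.

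The astrocyte genes were listed as cell type markers and were not picked as targets of this axis, although Gfap, as said above, is driven by it. They were called in both directions. Of 10, all tested, 1 was called higher and 1 lower at T1 (median log2 fold change -0.37, beside 15.1% and 16.8% of all genes), 1 higher and 4 lower at T2 (median -0.42, beside 21.4% and 21.8%), and 0 at T3 (median -0.68, with 4 at an unadjusted p under 0.05 and 4 called by DESeq2). Without T0 replicate 3, 1, 2 and 1 were higher at T1, T2 and T3, beside 25.2%, 26.7% and 9.94% of all genes. In that setting 6, 6 and 6 were lower, beside 24.9%, 25.3% and 8.49%. The lower genes at T2 were Aldh1l1 (-1.11, edgeR adjusted p = 0.0384), the gap junction gene Gja1 (-0.70, 0.0385), the glutamine synthetase gene Glul (-0.63, 0.00493) and Vim (-0.57, 0.00666), and the higher one was the transcription factor gene Sox9 (1.08, 0.0269). All 5 were also called without T0 replicate 3, at -1.42, -0.94, -0.70, -0.61 and 0.73. Gfap was at 37.2, 48.4 and 68.5 CPM at T1, at 121, 72.5, 200.1 and 108 CPM at T2, and at 33.3 and 23.9 CPM at T3. It fell by 2.12 from T2 to T3 (adjusted p = 0.0487). Against T0 it was at -0.95 at T1 (adjusted p = 0.572) and -1.77 at T3 (adjusted p = 0.523), and without T0 replicate 3 it fell by 1.52 (adjusted p = 0.000329) and fell by 2.35 (adjusted p = 0.00697). At T2 Gfap was not called against T0 with all libraries, and its T2 libraries spanned the 146 and 148 CPM of T0 replicates 1 and 2.

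The T1 and T2 libraries of the same number deviated together, but the labels do not say what the numbers mark. T1 replicate 3 correlated more with T2 replicate 4 (r = 0.476) than with T2 replicate 3 (r = 0.233). With the number as a block in that comparison, 0.476% of all genes were called lower and 1.51% higher. T2 replicate 4 has no T1 library of its number, so it adds nothing to the blocked fold changes. The members and the JAK-STAT list again had 0 calls. Of the astrocyte genes, Gfap rose from T1 to T2 by 1.29 (edgeR adjusted p = 0.0281, against 0.121 without the block) and the glutamate transporter gene Slc1a2 by 0.67 (0.032 against 0.188), and Aldh1l1 fell by 1.20 (0.0473 against 0.214), where 0 were called without the block (4 at an unadjusted p under 0.05, 2 by DESeq2). Among the marker lists, the block also added the neuron marker Gad1, up by 0.51 (0.032 against 0.0942), and the progenitor marker Hes1, which fell by 0.38 (0.043 against 0.242).

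Of 37 other chemokine and chemokine receptor genes, 18 had no count in any library and 28 had at most 3 in every library. With all libraries, 2 of 6 tested were called higher at T1 (15.1% of all genes), 3 of 7 at T2 (21.4%) and 0 of 6 at T3 (3.31%). None was called lower. At T3, 1 had an unadjusted p under 0.05 and DESeq2 called 1. Without T0 replicate 3, 2, 3 and 1 were called higher, beside 25.2%, 26.7% and 9.94% of all genes. Cxcr4, the signalling receptor of Cxcl12, was then called lower at all 3 times, beside 24.9%, 25.3% and 8.49% of all genes. Cxcr4 was at 27.5, 30.2 and 1.84 CPM at T0, and without the last of these fell by 1.07 at T1, fell by 1.24 at T2 and fell by 2.44 at T3 (edgeR adjusted p = 0.000103, 0.000225 and 0.0141). Cxcr7, a receptor that scavenges the chemokine Cxcl12, was at 3.96, 5.05 and 0.212 CPM at T0, at 108, 125 and 171 CPM at T1, at 93.1, 109, 88.1 and 127 CPM at T2, and at 68.6 and 45.5 CPM at T3. It rose by 5.44 at T1 (edgeR adjusted p = 0.00257) and 5.08 at T2 (adjusted p = 0.000471), or by 4.88, 4.53 and, at T3, 3.67 without T0 replicate 3 (adjusted p = 2.2e-06, 6.77e-07 and 0.00693). Cx3cl1, a neuronal chemokine, rose by 1.30 (adjusted p = 0.0293) and 1.17 (adjusted p = 0.0188), or by 0.99 and 0.86 without T0 replicate 3 (adjusted p = 0.00114 and 0.00403). Cxcl10, an interferon-induced chemokine, had 2, 0 and 3 counts at T0, 2, 1 and 1 at T1, 23, 16, 38 and 4 at T2, and 7 and 15 at T3. It was at least 8.65-fold higher at T2 than a floor of 3 counts per library at T0 (adjusted p = 0.0178, or 0.0175 without T0 replicate 3) and at least 8.36-fold higher than that floor at T1 (adjusted p = 0.0135 with the block, 0.12 without). The T2 library of 4 counts, T2 replicate 4, has no T1 library of its number and adds nothing to the blocked contrast. The fold bounds average all T2 libraries.

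Ccl2 in brain is made by glia, endothelium and myeloid cells among others, so their markers are given beside it. Of 13 microglia and macrophage markers, 4 (Tyrobp, C1qa, C1qb and Trem2) had 0 counts in all libraries and 12 had at most 3 in every library. Their summed level was 3.81 to 3.87 CPM at T0, with T0 replicate 3 inside that range, 3.77 to 5.58 at T1, 5.01 to 7.15 at T2 and 6.26 to 7.15 at T3, nearly all of it Cd68. Cd68, the only gene of this list tested, was called higher at T2 (log2 fold change 0.67, edgeR adjusted p = 0.0286), beside 21.4% of all genes. The call was also made without T0 replicate 3, beside 26.7%. The 6 endothelial markers summed to 1.52 to 3.88 CPM and the 8 fibroblast and pericyte markers, with Pdgfrb and Lum at 0, to 0.183 to 1.34 CPM. Of the 6 neuron markers, all 5 tested were called higher at T1 and at T2, beside 15.1% and 21.4% of all genes. At T3, 2 of 6 tested were called higher, beside 3.31% of all genes (4 without T0 replicate 3, beside 9.94%, and 5 by DESeq2). Dcx was up by 5.29 at T1, 6.06 at T2 and 6.22 at T3 (edgeR adjusted p = 0.000707, 8.19e-05 and 0.018), or by 4.87, 5.64 and 5.80 without T0 replicate 3. The neuron markers summed to 894 to 961 CPM at T0, 2054 to 2630 at T1, 2027 to 2595 at T2 and 1699 to 2706 at T3. Of the 6 progenitor markers, all tested, edgeR called 0 at T1, T2 and T3 (1, 0 and 1 at an unadjusted p under 0.05, and 1, 0 and 0 by DESeq2). Without T0 replicate 3 it called 4, 2 and 2 higher, beside 25.2%, 26.7% and 9.94% of all genes. It then called 0, 0 and 1 lower, beside 24.9%, 25.3% and 8.49%. The part of cell makeup in the members' values was not tested.

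The genes most like 3 of the members over the 12 libraries, by Pearson r of log2 CPM among 11530 genes, are given as a description; the libraries share 4 time points. For Ccl2 they were Dennd2a (0.987), Mtmr12 (0.986), Traf7 (0.982), Mest (0.982) and Qsox2 (0.981), with r of 0.951 to 0.968 without T0 replicate 3. All 5 were highest in that library, as Mest was, at 372, 354 and 1483 CPM over the T0 libraries. For Lifr they were Apaf1 (0.949), Per2 (0.941), P2ry1 (0.932), Dock1 (0.928) and Neil3 (0.928), with r of 0.932 to 0.975 without T0 replicate 3. For Socs3 they were Thsd1 (0.966), Npff (0.964), Slc7a3 (0.964), Scg2 (0.960) and Pde2a (0.956), with 0.934 to 0.968 without it.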

How the data were processed

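The authors extracted RNA with Trizol, prepared TruSeq RNA v2 libraries, sequenced them on a HiScanSQ, called bases with CASAVA 1.8 and aligned reads to mm9 with TopHat2 2.0.6 and Bowtie 0.12.7.0. Per the labels, HTSeq 0.6.0 and DESeq2 1.0.0 were also used. The strand setting is not given in the sources used here, so reads of overlapping or antisense genes cannot be told apart. The authors deposited raw counts of 22609 genes for each library. A further 5 entries name no gene and were left out; reads on no gene were 13.3% to 24.1%. The deposited FPKM values cover 34993 identifiers, with no tool given in the sources used here, and served for levels per length only.

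Counts were scaled by TMM (factors 0.931 to 1.04), filtered with filterByExpr, and tested on the libraries of the groups compared with edgeR 4.0.16 in R 4.3.3 (quasi-likelihood, Benjamini-Hochberg adjustment over all genes, threshold 0.05). CPM use the TMM-scaled totals. Members and gene lists were chosen with earlier results of these data known. Named were the members, IL6-family ligands and STAT genes with a count, up to 3 called genes per direction for each other list or role and comparison, and the 5 most like genes of Ccl2, Lifr and Socs3. Results of 2 genes under this rule are not reported here. Named beside that rule, after their values were seen, were the genes near Ccl2 and its receptor, Osmr, Tyk2, Vim, Slc1a2, Hes1, Cxcr4, and Nes and Sox2. T3 replicate 4 was matched by the 4 in its column name, where a 2 with no stated meaning also stands. Replicate numbers are shared between groups: same-numbered T1 and T2 libraries had correlated deviations in all 3 pairs (r from 0.233 to 0.467), so that blocked values are given for that comparison where they change a call. The tests were tried on simulated counts. Alternatives were DESeq2 1.42.0, RLE scaling, no filter, at least 10 counts in every library, 1 fit of 12 libraries, replicate number as a block, libraries numbered 1 and 2 only, and leaving out each library. The Ccl2 alternatives were chosen after seeing the data. No replicate pair agreed within sampling noise (chi-square per degree of freedom 3.17 to 99.9).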

Additional observations from a re-analysis of the deposited data

Results flagged for a closer look

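In groups of 4 libraries, which only T2 has, 5 of 48 genes had a library set apart from the others by Dixon's criterion, which chance alone gives in about 1 of 20 groups. They were Stat6, highest in T2 replicate 4 at 4.97 CPM; Glul, lowest in T2 replicate 2 at 262 CPM; and 3 genes of at most 3 counts, Il6 (highest 0.183 CPM), Il11 (lowest 0.0928 CPM) and Osm (highest 0.0613 CPM).

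The change of Jak2 from T0 differed between T2 and T3: the T3 level was below the T2 level by -0.67 on the log2 scale in the direct test of that difference (edgeR adjusted p = 0.0458), with 2 T3 libraries.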

How the results depend on the processing

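Of 504 alternative values of the members' log2 fold changes, 440 kept direction and side of the threshold, 33 lost a call, 17 gained one and 14 changed sign, none of them a called value. Members called at T1, T2 and T3 against T0 (4, 5 and 0 as reported) ran from 0 to 4, 3 to 5 and 0 to 2 when single libraries were left out; T2 against T1 stayed at 0 and T3 against T2 (1) ran from 0 to 3. With DESeq2 the counts were 1 at T3, 1 for T2 against T1 and 3 for T3 against T2, with no filter 3 for the last, and with 1 fit of all libraries 2 at T3 and 0 for T3 against T2. The 4 lists of 108 genes gave 16, 21, 1, 1 and 3 calls (T1, T2 and T3 against T0, T2 against T1, T3 against T2). Leaving out single libraries gave 8 to 28, 16 to 32, 0 to 16, 0 to 2 and 0 to 8. DESeq2 gave 12, 4 and 7 for T3 against T0, T2 against T1 and T3 against T2, no filter 3, 3 and 6, and 1 fit of all libraries 17, 0 and 0; at least 10 counts in every library gave 0 at T3 and 1 for T3 against T2. Libraries numbered 1 and 2 only gave 31, 35 and, for T2 against T1, 3. The causes were not tested.

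With the replicate block, members called were 3 at T1 and 3 at T2 against T0 (Cntfr lost at both, Jak1 at T2) and 0 for T3 against T2 (Jak2 lost), and list calls 12, 14 and, for T3 against T2, 1; for T2 against T1 list calls rose to 4, and no member call changed. Over 13 same-numbered pairs the correlation ran from -0.168 to 0.493, with 7 over 0.1, and 3 of 9 libraries numbered 1 to 3 correlated best with their own number. T3 against T0 was not blocked, since only number 1 is shared. In a blocked comparison, libraries whose number the other group lacks add nothing to the fold change.

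Values that changed sign were those of Stat3 at T1 (-0.13 with libraries numbered 1 and 2 only), and, as ranges over leaving out single libraries, of Stat3 at T3 (-0.12 to 0.31; -0.054 without T0 replicate 3) and from T2 to T3 (-0.42 to 0.0096), Lifr at T3 (-0.41 to 0.062), Socs3 from T2 to T3 (-0.15 to 0.0062), and, for T2 against T1, Il6st (-0.11 to 0.052; 0.0035 with at least 10 counts), Cntfr (-0.097 to 0.40; -0.26 with libraries numbered 1 and 2 only) and Jak1 (-0.092 to 0.018). The Ccl2 bound ran from 5.69 to 37.7 at T1 and 4.92 to 32.6 at T2. Ccl2 at T1 to T3 and several of the ligands had few counts per library, which limits how well their levels are known.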
